A study of Mus musculus with 16 samples.

Results

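The cornified envelope is the cross-linked protein shell that stratified squamous cells build beneath the plasma membrane as they leave the basal layer and differentiate. Transglutaminases join precursors such as involucrin, loricrin and the small proline-rich proteins, the keratins Krt1 and Krt10 are bundled with filaggrin, and secreted proteases and their inhibitors control how the outermost cells are shed. The corneal epithelium is stratified but not keratinised, and its differentiation keratin is Krt12, so most of these genes are known chiefly from epidermis. The 34 genes described here were named as a module for this function. No rule on measured values was used, but earlier results of these data were known when they were named. Every probe set annotated to only 1 of them was taken. The array held such probe sets for 30 of the 34 genes, 35 probe sets in all, of 18193 genes and 45037 probe sets other than controls. Sprr2a1 was covered only by 3 probe sets shared with its neighbours Sprr2a2 and Sprr2a3, and Sprr2b, Sprr4 and Flg2 had no probe set annotated to a single symbol, so these 4 genes were not analysed here.

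The groups were 8 limbal and 8 corneal captures, 1 of each from each of 8 wild-type mice. Each capture was 300 epithelial basal cells taken by laser capture microdissection, and its RNA was amplified and hybridised to 1 Affymetrix Mouse430_2 array. The limbus is the rim of the cornea, where its stem cells are thought to lie, and the question is how transcript levels there differ from those in the cornea proper of the same mouse. The labels give no strain, age or sex and do not say how basal cells were recognised. The site was read from the letter L or C in the sample title and the mouse from its number. The array information files of the second scan day carry neither letter. With captures of this kind, fewer cells of a type and less RNA per cell cannot be told apart.

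The arrays differed in quality. Mice 1 and 2 were scanned on the first day, mice 3 to 5 on the second and mice 6 to 8 on the third. Both arrays of a mouse were always scanned on 1 day, so scan day and mouse cannot be told apart. The other mice had 1 recorded station for both arrays, but mice 1, 7 and 8 had station 1 for the limbal and station 2 for the corneal array. In these mice site and station cannot be told apart. The median correlation between arrays across probe sets was 0.51, 0.28 and 0.83 on the 3 days in turn, and the 99th percentile of the signal was 5171 to 10207, 2443 to 4908 and 14916 to 18165. Krt12 had a log2 signal of 15.18 to 18.23 on 15 arrays but 10.02 on the corneal array of mouse 5, which also had the lowest median correlation with the other arrays, 0.17. The limbal and corneal arrays of mouse 8 were unusually alike, with 6.46% of 13570 tested genes differing by more than 1 on the log2 scale, against 26.4% to 53.9% in the other mice. Whether both captures of mouse 8 hold different sites was not tested, and if they do not, its differences say nothing about site. Counts over the members are therefore also given without mouse 5, 7 or 8, and fitted differences where leaving out one of these mice turns the sign or moves the value strongly.

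Values were compared as log2(signal + 89.4), on which all differences below are given as limbal minus corneal with the standard error (SE) of the fit. The added constant compresses the differences of dim probe sets. A probe set was tested where its mean over all 16 arrays was above the 40th percentile, and 29 of the 35 member probe sets passed, covering 25 genes. Sprr1b, Sprr2f, Sprr3, Tgm1 and Lce3a did not pass, nor did the dimmer of the Ivl probe sets. For a gene with several tested probe sets, the brightest was used.

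No member of the module changed between the sites at the threshold. With limma and the mouse as a block, 0 of 29 member probe sets had an adjusted p under 0.05, against 23 of all 27022 tested probe sets (0.0851%), of which 0.0814% were higher and 0.0037% lower at the limbus. By gene the share called was 0.133%. At an unadjusted p under 0.05 there were 7 member probe sets of 29, against 6.46% of all probe sets, and 6 genes of 25, against 6.71% of all genes. All 7 probe sets were higher at the limbus, against 3.69% of all probe sets higher and 2.78% lower. The 6 genes, Asprv1, Flg, Spink5, Sprr2d, Csta1 and Sbsn, were likewise higher, against 4.1% of all genes. Of the 25 genes, 21 had a positive fitted difference (84.0%), against 50.9% of 13570 genes. The median difference was 0.41 for the members and 0.01 for all genes, and the members' SE ran between 0.40 and 0.64. The typical 95% interval reached 0.98 to each side, which limits the differences that 8 arrays per site can show.

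**Figure D1:**
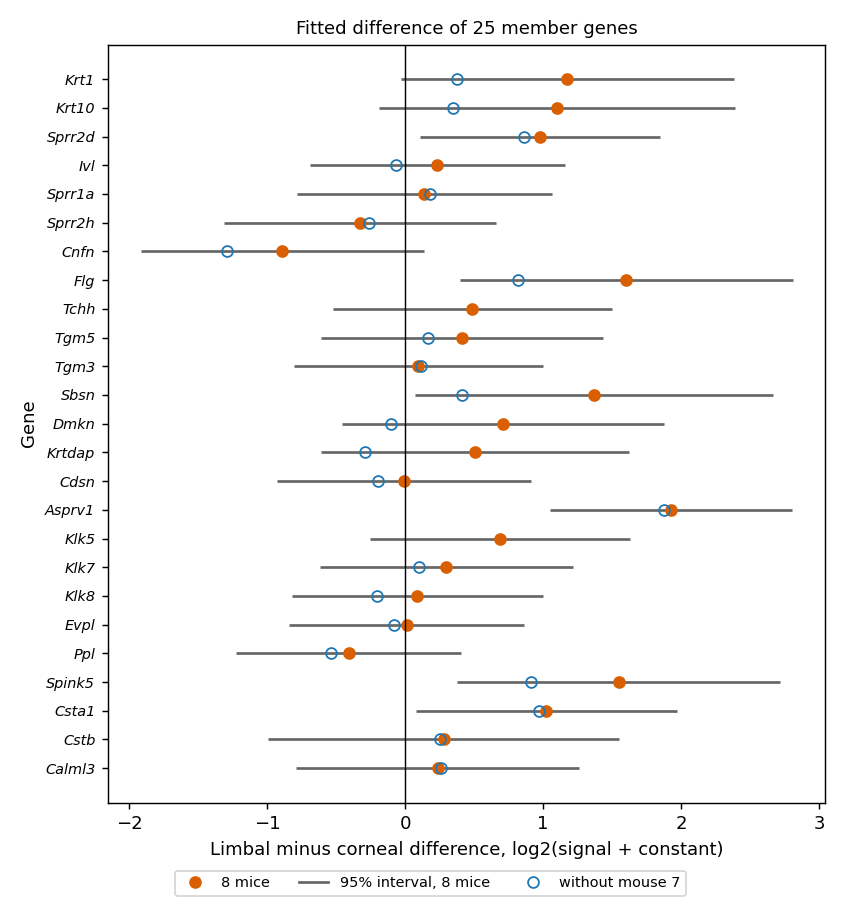
Fitted limbal minus corneal difference of the 25 tested member genes on the log2(signal + constant) scale, with 95% intervals (filled points, all 8 mice) and the same estimate without mouse 7 (open circles; Klk5 and Tchh fell below the filter and have none). Asprv1 at 1.92 is the value farthest above 0 and Cnfn at -0.89 the farthest below, and the estimates of Krt1, Krt10, Sbsn and Flg lie closer to 0 without mouse 7.

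Among the fits that left out 1 mouse, the number of positive differences was lowest without mouse 7. In that fit, 14 of 23 tested member genes had a positive difference and the median was 0.17. By limma, 2 of 27 member probe sets had an unadjusted p under 0.05, against 5.35% of all tested probe sets. They were those of Asprv1, higher at the limbus, and Cnfn, lower at -1.29. Without mouse 5, whose corneal array had little Krt12, 17 of 24 genes were positive with a median of 0.58. Leaving out mouse 8 gave 20 of 25 genes and a median of 0.40.

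The proteases of the set include Asprv1, a retroviral-like aspartic protease that processes profilaggrin, and the kallikreins Klk5, Klk7 and Klk8, serine proteases that act on the adhesions between shedding corneocytes. Asprv1 had a signal of 181 to 17971 on the limbal arrays, with a median of 2648, and of 79.0 to 3643 on the corneal arrays, with a median of 387. It was higher on the limbal array in all 8 mice, which was so for 0.575% of all tested genes, although the ranges of the sites overlapped. The differences in mice 1 to 8 were 0.69, 4.60, 3.23, 0.55, 1.17, 1.23, 2.27 and 1.67. Its log2 value averaged 11.06 ± 1.94 on the limbal arrays and 9.14 ± 1.73 on the corneal arrays (SD, n = 8 each), a difference of 1.92 ± 0.43 or 3.80-fold, with a limma adjusted p of 0.0698. The mean difference was 2.64, 1.65 and 1.72 on the 3 scan days in turn.

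Asprv1 missed the threshold in this fit, and its adjusted p lay between 0.052 and 0.515 when single mice were left out, the highest being without mouse 2. It passed with arrays weighted by their fit (limma adjusted p = 0.000924) and on the first scan day alone (limma adjusted p = 0.00728), which rests on mice 1 and 2. It did not pass on the second or on the third day alone (limma adjusted p = 0.999 and 0.330), after quantile normalization (0.455), with the mouse as a random block (0.230) or with no block (0.9999). The kallikreins differed less. Klk5 had a signal of 80.5 to 1635 on the limbal arrays (median 244) and of 43.1 to 714 on the corneal arrays (median 91.6), a difference of 0.69 ± 0.47 (adjusted p = 0.867) with 5 mice higher, and its difference in mouse 7 was 3.70. Klk7 had a difference of 0.30 ± 0.45, which was 0.52 without mouse 5 and 0.10 without mouse 7. Klk8 had 0.09 ± 0.45, which was 0.30 without mouse 5 and -0.20 without mouse 7.

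Krt1 and Krt10 form the keratin pair of suprabasal epidermis. Krt10 had a signal of 98.4 to 119291 on the limbal arrays (median 4455) and of 69.2 to 22538 on the corneal arrays (median 1147). The ranges of the sites overlapped, with 4 mice higher and 4 lower at the limbus. By mouse the Krt10 difference was 1.50, 5.12, -2.43, -0.69, -2.62, 1.91, 6.38 and -0.34. The fitted difference was 1.10 ± 0.64 (limma adjusted p = 0.818), 0.35 without mouse 7, 0.53 without mouse 2 and 1.63 without mouse 5.

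Krt1 followed a similar course. Its signal was 78.5 to 27295 on the limbal arrays (median 663) and 93.2 to 2707 on the corneal arrays (median 434). Mice 1 to 8 gave differences of 1.23, 1.21, -2.25, -1.31, 0.16, 3.84, 6.76 and -0.24, positive in 5 of them. The fitted value was 1.18 ± 0.59 (limma adjusted p = 0.788) and 0.38 without mouse 7.

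Among the S100 fused-type proteins, filaggrin (Flg) aggregates keratin filaments and trichohyalin (Tchh) does so chiefly in the hair follicle. Flg had a signal of 92.9 to 14132 on the limbal arrays (median 714) and of 13.8 to 1093 on the corneal arrays (median 198). Its difference was negative in mice 1, 2, 4 and 5, at -0.41, -0.29, -0.32 and -1.10, and positive in mice 3, 6, 7 and 8, at 1.88, 4.43, 7.11 and 1.52. All 3 mice of the third scan day were therefore higher at the limbus. The fit gave 1.60 ± 0.59 (limma adjusted p = 0.579), and 0.82 without mouse 7. Tchh differed by 0.49 ± 0.50, and by 0.94 without mouse 5 (unadjusted p = 0.0633).

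The largest role group was the small proline-rich proteins and other envelope precursors, whose members split in direction. Sprr2d had a signal of 233 to 2668 on the limbal arrays (median 1101) and of 48.4 to 2078 on the corneal arrays (median 333). It was higher at the limbus in 7 of 8 mice, which was so of at least 7 mice for 4.37% of all tested genes, with differences of -0.55, 0.25, 2.74, 0.23, 2.43, 0.83, 1.77 and 0.12. The fitted difference was 0.98 ± 0.43 (unadjusted p = 0.0288, limma adjusted p = 0.721). Sprr2f, below the filter, had a mean difference of 0.89 and was also higher in 7 of 8 mice, as were 3.38% of all probe sets in at least 7, with signals of 110 to 1001 on limbal and 28.4 to 340 on corneal arrays.

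The other family members showed smaller or negative differences. Sprr1a had a signal of 185 to 1157 on the limbal arrays (median 607) and of 62.7 to 1651 on the corneal arrays (median 654), and differed by 0.14 ± 0.46 with 4 mice higher, or by 0.07 without mouse 5. Sprr2h, read by a probe set of the kind that can bind related transcripts, differed by -0.33 ± 0.49 with 2 mice higher. Below the filter, Sprr1b had a mean difference of -0.51 and Sprr3 of 0.00. The Sprr2 genes are close copies of one another, so their probe sets may share signal and the values of single genes are uncertain.

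Involucrin (Ivl), an early scaffold of the envelope, was read by a pair of probe sets that disagreed. The brighter had a signal of 74.0 to 1703 on the limbal arrays (median 680) and 258 to 925 on the corneal arrays (median 564). Its difference was 0.23 ± 0.46 (limma adjusted p = 0.974), with 4 mice higher and 4 lower, and -0.05 without mouse 5 and -0.06 without mouse 7. The dimmer, below the filter, was lower on the limbal array in all 8 mice, as were 0.668% of all probe sets, with a mean difference of -0.74. In mouse 4 the difference was only -0.007, with signals of 83.7 and 84.5. The limbal median of this probe set, 38.65, lay below the added constant of 89.4, so its direction is uncertain. Its signals were 10.2 to 223 on the limbal arrays and 38.2 to 665 on the corneal arrays, and with no filter its unadjusted limma p was 0.0295 and its adjusted p 0.806.

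Cornifelin (Cnfn), an envelope component, was the member with the most negative fitted difference. Its signal was 52.9 to 1056 on the limbal arrays (median 199) and 48.3 to 1310 on the corneal arrays (median 603). Mice 1 to 4 gave -2.33, -3.22, -1.01 and -3.27, and mice 5 to 8 gave 0.22, 0.62, 1.90 and -0.03. The first 4 mice were thus lower at the limbus and the others near 0 or higher. The fit gave -0.89 ± 0.51 (limma adjusted p = 0.815), and -1.29 without mouse 7. Lce3a, a late envelope protein, stayed below the filter with a mean difference of 0.06.

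None of the cross-linking enzymes or of the plakins that seed the envelope passed the test. Tgm1, the membrane-bound transglutaminase of keratinocytes, was below the filter, with a signal of 50.8 to 1047 on the limbal arrays (median 97.0) and of 64.3 to 547 on the corneal arrays (median 209). By mouse its difference was -2.18, -0.16, 0.89, 0.25, -1.15, -0.13, -0.12 and -0.29, and 6 of 8 mice were lower at the limbus. Tgm3 differed by 0.10 ± 0.45, by 0.44 without mouse 5 and by -0.11 without mouse 8. Tgm5 differed by 0.41 ± 0.50, by 0.98 without mouse 5 (unadjusted p = 0.0402, limma adjusted p = 0.689) and by 0.17 without mouse 7. Periplakin (Ppl) had a signal of 364 to 3069 on the limbal arrays (median 910) and of 731 to 2572 on the corneal arrays (median 1452), a difference of -0.41 ± 0.40 (limma adjusted p = 0.928) with 3 mice higher. Envoplakin (Evpl) differed by 0.01 ± 0.42, with values of -0.05, -0.08 and 0.07 without mouse 5, 7 and 8 in turn.

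The protease inhibitors include Spink5, which encodes the kallikrein inhibitor LEKTI, and the cysteine protease inhibitors Csta1 and Cstb. Spink5 had a signal of 101 to 6381 on the limbal arrays (median 974) and 13.7 to 1586 on the corneal arrays (median 260). It was higher at the limbus in 6 of 8 mice, with differences of 0.12, 1.99, 2.78, -3.14, 1.49, 3.58, 5.97 and -0.42. The fitted difference was 1.55 ± 0.58 (limma adjusted p = 0.583) and 0.92 without mouse 7.

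Csta1 had a signal of 592 to 10037 on the limbal arrays (median 1480) and of 26.4 to 3708 on the corneal arrays (median 971). Its differences of -0.67, 2.57, 2.12, -1.26, 3.73, -0.80, 1.41 and 1.10 were positive in 5 mice. The fit gave 1.02 ± 0.47 (limma adjusted p = 0.747), and 0.64 without mouse 5, whose corneal signal of 26.4 was the lowest of all 16 arrays.

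Cstb and the calmodulin-like protein Calml3 were the members with the brightest probe sets, and neither separated the sites. Cstb had a signal of 2035 to 60414 on the limbal arrays (median 25076) and of 230 to 50040 on the corneal arrays (median 21277). Its difference of 0.28 ± 0.63 (limma adjusted p = 0.979) contained 4.83 in mouse 5 and became -0.37 without that mouse. The other, dimmer Cstb probe set gave -0.01 ± 0.42. In mouse 5 that probe set differed by -0.60, with a corneal signal of 1243 (corneal median 1086), so the 2 probe sets disagreed in this mouse. Calml3 had a signal of 2157 to 31907 on the limbal arrays (median 7473) and of 1864 to 35322 on the corneal arrays (median 5914), a difference of 0.24 ± 0.51 (limma adjusted p = 0.976), or 0.09 without mouse 5.

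**Figure D2:**
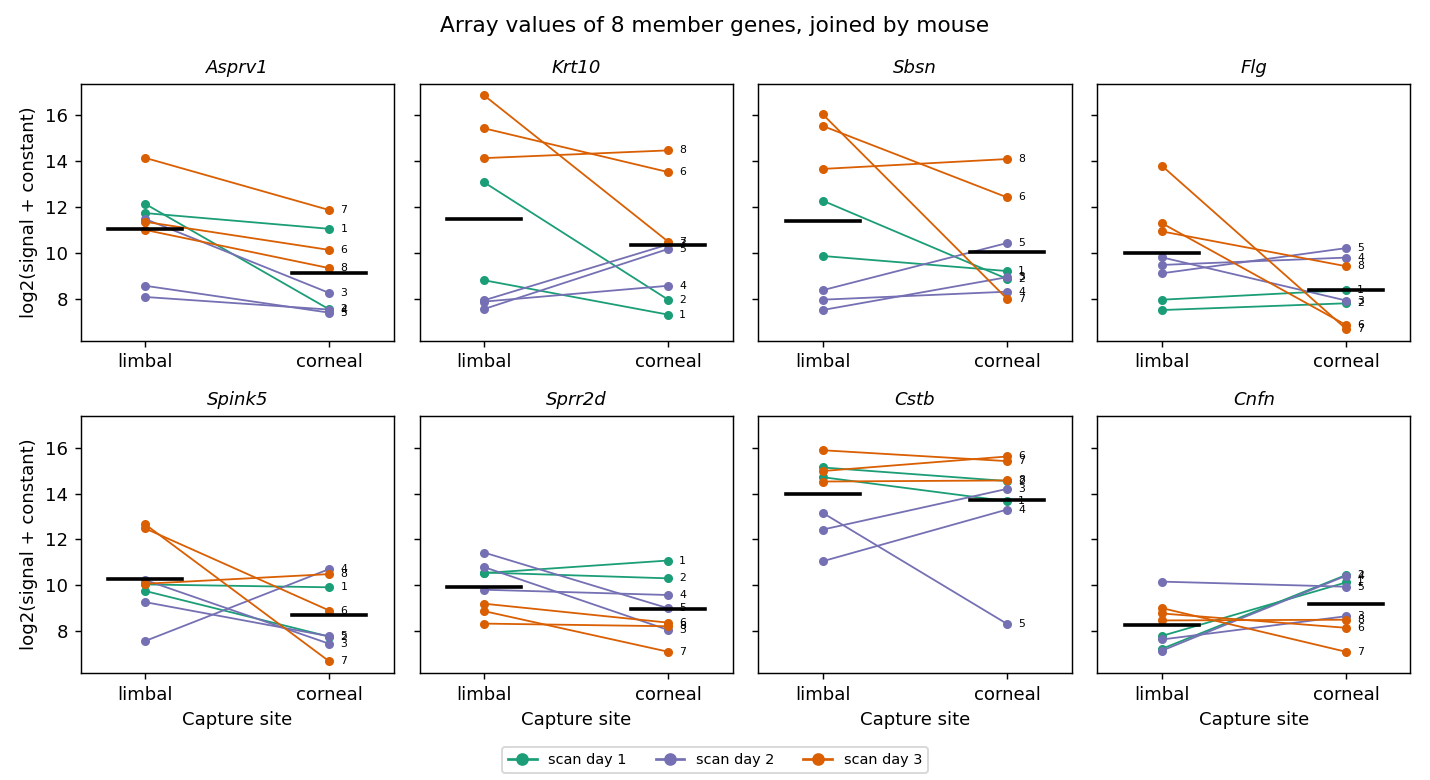
Log2(signal + constant) of Asprv1, Krt10, Sbsn, Flg, Spink5, Sprr2d, Cstb and Cnfn on all 16 arrays, limbal left of corneal, with a line joining both arrays of a mouse. All 8 Asprv1 lines run higher at the limbus, the Krt10 and Sbsn lines run both ways, and Cstb has its lowest point on the corneal array of mouse 5.

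Suprabasin (Sbsn), dermokine (Dmkn) and Krtdap encode small proteins secreted by differentiating keratinocytes, and corneodesmosin (Cdsn) is an adhesive protein of the corneodesmosome. Sbsn had a signal of 93.3 to 66821 on the limbal arrays (median 2849) and of 166 to 17333 on the corneal arrays (median 452). Its differences were 0.66, 3.40, -1.43, -0.35, -2.05, 3.11, 8.03 and -0.43, with 4 mice higher and 4 lower. The fit gave 1.37 ± 0.64 (limma adjusted p = 0.76), and 0.42 without mouse 7. The other Sbsn probe sets gave 1.07 and 1.20. Dmkn and Krtdap differed by 0.71 ± 0.57 and 0.51 ± 0.55, and by -0.10 and -0.29 without mouse 7. Cdsn had a fitted difference of -0.01 ± 0.45, with 6 of 8 mice higher and mouse 2 at -2.56. It was -0.07, -0.20 and -0.02 without mouse 5, 7 and 8 in turn.

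Sbsn, Dmkn and Krtdap are adjacent genes on mouse chromosome 7. Their upstream sequences are shown because the 3 genes ran in parallel across the arrays of the third scan day, and those of Asprv1 and Flg because these genes had the smallest p of the set. Each is the 250 bases before the gene start from RefSeq, build GRCm38.p6, in the direction of the gene, with any match to the AP-1 motif TGANTCA in capitals. AP-1 is a dimer of Fos and Jun family proteins known to act on promoters of keratinocyte differentiation genes. The windows are Sbsn at chr7:30751221-30751470, Dmkn at chr7:30763506-30763755, Krtdap at chr7:30787655-30787904, Flg at chr3:93273296-93273545 and Asprv1 at chr6:86627924-86628173, all on the plus strand.
Sbsn: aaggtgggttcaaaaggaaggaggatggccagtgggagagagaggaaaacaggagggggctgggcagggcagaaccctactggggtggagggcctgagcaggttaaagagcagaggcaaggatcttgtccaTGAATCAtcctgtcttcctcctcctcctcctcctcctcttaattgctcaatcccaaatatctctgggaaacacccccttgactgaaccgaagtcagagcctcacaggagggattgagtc
Dmkn: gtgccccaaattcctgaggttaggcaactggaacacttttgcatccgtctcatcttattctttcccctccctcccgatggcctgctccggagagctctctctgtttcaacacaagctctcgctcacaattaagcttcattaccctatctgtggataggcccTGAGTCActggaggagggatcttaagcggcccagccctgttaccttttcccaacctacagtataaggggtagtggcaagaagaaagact
Krtdap: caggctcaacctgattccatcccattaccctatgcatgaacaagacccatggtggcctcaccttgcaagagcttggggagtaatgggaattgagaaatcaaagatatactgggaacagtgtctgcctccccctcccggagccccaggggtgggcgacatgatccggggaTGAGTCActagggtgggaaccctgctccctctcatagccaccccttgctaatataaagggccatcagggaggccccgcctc
Flg: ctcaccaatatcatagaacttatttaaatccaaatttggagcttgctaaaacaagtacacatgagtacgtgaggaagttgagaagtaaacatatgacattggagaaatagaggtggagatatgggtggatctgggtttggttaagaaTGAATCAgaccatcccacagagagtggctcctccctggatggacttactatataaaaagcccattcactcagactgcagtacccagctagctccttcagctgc
Asprv1: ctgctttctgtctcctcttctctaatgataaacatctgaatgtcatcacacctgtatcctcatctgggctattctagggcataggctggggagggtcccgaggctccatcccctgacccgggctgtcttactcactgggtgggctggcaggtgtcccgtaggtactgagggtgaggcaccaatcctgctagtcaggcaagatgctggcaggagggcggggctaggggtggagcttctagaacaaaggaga
The AP-1 motif, which reads the same on both strands, began 119 bases before the start of Sbsn, 89 before Dmkn, 81 before Krtdap and 103 before Flg. The Asprv1 window does not hold these letters. Neither do the windows of Krt10, Cnfn and Klk5, which are not printed. These genes also ran in parallel with Sbsn, Dmkn and Krtdap on the third scan day.

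Of the 34 members, 28 had a promoter entry. The AP-1 motif was in the windows of 12 of these 28 genes (42.9%), against 6.75% of 32851 windows of the same length over all promoter entries. The other 8 were Sprr1a, Sprr1b, Sprr2b, Sprr2d, Sprr2f, Sprr2h, Ivl and Flg2. All 8 lie on chromosome 3, and the Sprr2 genes are close copies that share their position of the motif to within a few bases. The letters TATAAA, searched on both strands, were in 12 of 28 member windows (42.9%) against 12.4% of all, and CACCC, a core of sites for Krüppel-like factors, in 17 of 28 (60.7%) against 52.0%. The end of TGANTCA can run into the start of CACCC, and such overlapping matches were both counted. A match describes the sequence and was not measured as a binding site.

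The members' differences varied widely from mouse to mouse. The number of the 25 genes that were higher on the limbal array was 16, 16, 12, 10, 13, 17, 22 and 11 in mice 1 to 8. The medians were 0.48, 0.59, -0.04, -0.35, 0.16, 0.73, 1.90 and -0.05. In mouse 7, 22 genes were higher (88.0%) and 18 were higher by more than 1 on the log2 scale (72.0%), against 44.5% and 12.2% of all tested genes in that mouse. The difference in mouse 7 was the largest of the 8 mice for 13 of the 25 genes, against 5.63% of all genes.

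**Figure D3:**
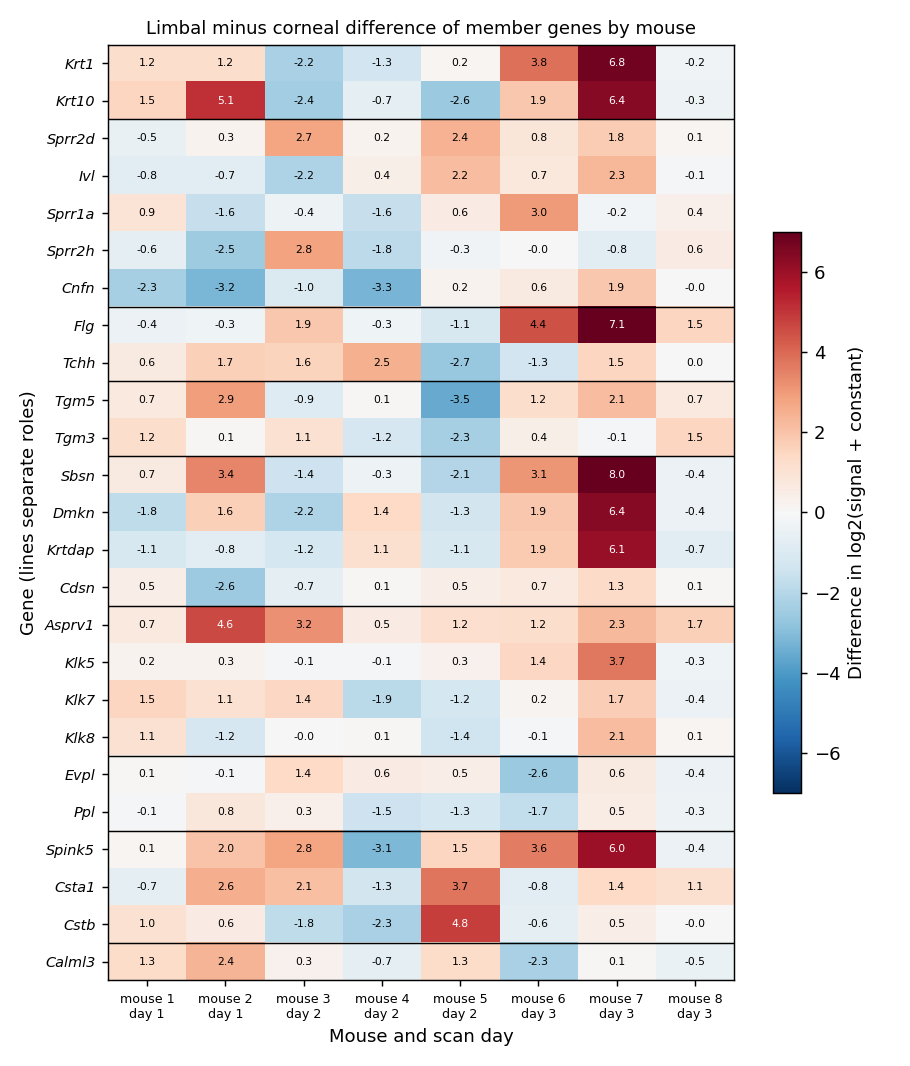
Limbal minus corneal difference, log2(signal + constant), of each of the 25 tested member genes (down) in each of the 8 mice (across), with the value printed in each cell. The column of mouse 7 is positive for 22 genes, with 8.03 for Sbsn, while the column of mouse 8 holds values near 0 for most genes, and Asprv1 is positive in every column.

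The levels behind these differences show which arrays were high. Krt10 on the third scan day had a signal of 44018, 119291 and 17824 on the limbal arrays of mice 6, 7 and 8, and of 11670, 1348 and 22538 on their corneal arrays. Sbsn had 47136, 66821 and 12844 on those limbal arrays, and 5386, 166 and 17333 on the corneal arrays. Both genes were highest on the limbal array of mouse 7 and lowest on its corneal array. Dmkn had 9159, 25494 and 2634 on the limbal arrays, and 2417, 214 and 3503 on the corneal arrays. Krtdap had 4418, 16501 and 1378 on the limbal arrays, and 1157, 154 and 2362 on the corneal arrays.

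These 4 genes put the 6 arrays in 1 order, limbal mouse 7, limbal mouse 6, corneal mouse 8, limbal mouse 8, corneal mouse 6 and corneal mouse 7. Krt1, Cnfn, Klk5 and Spink5 had the same order, making 8 of 25 members, against 0.361% of all tested genes. The order was picked after the values were seen and is given as a description. For 12 of 25 members (48.0%) the limbal array of mouse 7 was the brightest of all 16 arrays, against 6.3% of all genes.

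On the other scan days the epidermal keratin and secreted genes were mostly dimmer. Krt10, Sbsn and Dmkn each had 5 of the 6 arrays of the third day above every array of the first and second days, whose highest signals were 8550, 4856 and 1823 for these genes in turn. That was 3 of 25 members, against 10% of all tested genes, close to the background. At least 3 such arrays were found for 8 of 25 members, against 19% of all tested genes. Krt1 and Krtdap had 4 such arrays and Flg had 3, as did Calml3 and Cstb, members known from many epithelia. Krt12 did not split in this way, with log2 signals of 15.18 to 17.52 on the third day and, leaving out the corneal array of mouse 5, of 15.99 to 18.23 on the others. The median difference of the members was 0.33, -0.03 and 0.90 on the 3 scan days in turn. A test of the difference between days gave 0 of 25 members at an adjusted p under 0.05 (smallest 0.849), and 7 with an unadjusted p under 0.05, against 5.5% of all genes. Over all genes limma made no call in that test (0%).

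Genes outside the 34 that act in cornification had differences close to those of the members. Of 96 such genes listed, 79 had a probe set and 61 were tested, with 47 positive and 14 negative differences, a median of 0.48 and 0 calls at an adjusted p under 0.05. At an unadjusted p under 0.05, 19 were higher and 1, Capn12, was lower, against 4.1% and 2.62% of all genes. Smallest in p were Ly6g6c at 2.07 ± 0.47 (limma adjusted p = 0.074) and the late envelope gene Lce1i at 2.11 ± 0.50 (limma adjusted p = 0.104). The next by p, listed here by size of difference, were Lce1c, Hrnr, Hal, Ctsc, Krt78 and Krt80, at 2.10, 1.58, 1.57, 1.39, 1.37 and 1.36. The Lce1 genes are near-identical copies, so their single values are uncertain.

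Loricrin (Lor), the main protein of the epidermal envelope, had a similar pattern over mice. Its signal was 433 to 74416 on the limbal arrays (median 3159) and 350 to 18547 on the corneal arrays (median 1652). The difference was 3.23 in mouse 6 and 5.93 in mouse 7 but 0.01 in mouse 8, and the fit gave 1.19 ± 0.55 (limma adjusted p = 0.754) with 6 mice higher. These values are from the brightest Lor probe set. Another tested Lor probe set gave 1.51 ± 0.62 with 4 mice higher and 4 lower. A further one, below the filter, had a mean difference of 0.13, also with 4 mice higher. Casp14, a protease that degrades filaggrin products, differed by 0.38 ± 0.42 on a probe set of the kind that can bind related transcripts. The other Casp14 probe set, below the filter, had a mean difference of 0.26. Krt2 was below the filter with a mean difference of -0.37.

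Gland markers also had higher limbal values in mice 6 and 7. Of 9 tested sebaceous and meibomian gland genes, 8 had a positive fitted difference, with a median of 0.88 and no call, and the median by mouse was -1.48, 1.08, 0.36, -0.17, -0.08, 2.80, 3.51 and 0.08. Their summed signal was 6636 to 242085 on the limbal arrays and 16663 to 228126 on the corneal arrays. Mgst1 of this list differed by 2.51 ± 0.61 (limma adjusted p = 0.107), by 5.84 in mouse 6 and by 6.47 in mouse 7. Scd1 and Fabp5, also expressed outside these glands, differed by 1.16 and 0.28. The part of gland cells in the values of the cornification genes was not tested.

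Of 13 tested conjunctival and goblet cell markers, 10 were higher, with a median of 1.23 and 1 call, and a summed signal of 6247 to 106686 on limbal and 6250 to 21421 on corneal arrays. Of 16 stromal markers, 15 were higher, with a median of 1.90 and 3 calls, and a summed signal of 9153 to 361482 on limbal and 4539 to 40417 on corneal arrays. Of 14 immune markers, 12 were higher, with a median of 0.85 and 3 calls. Their sums were 5715 to 150362 on limbal and 2803 to 17686 on corneal arrays. Of 13 corneal epithelial markers, 4 were higher, with a median of -0.50 and 0 calls. Hair follicle genes, 3 of 8 higher with a median of -0.22, summed to 1554 to 6108 on limbal and 1538 to 10052 on corneal arrays. Muscle genes were higher for 8 of 10 (median 0.69), lens genes for 4 of 7 (median 0.01) and pigment cell genes for 3 of 3 (median 0.61). No marker of these lists had a value of 0 on any array, and the part of these cells in the members' values was not tested.

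**Figure D4:**
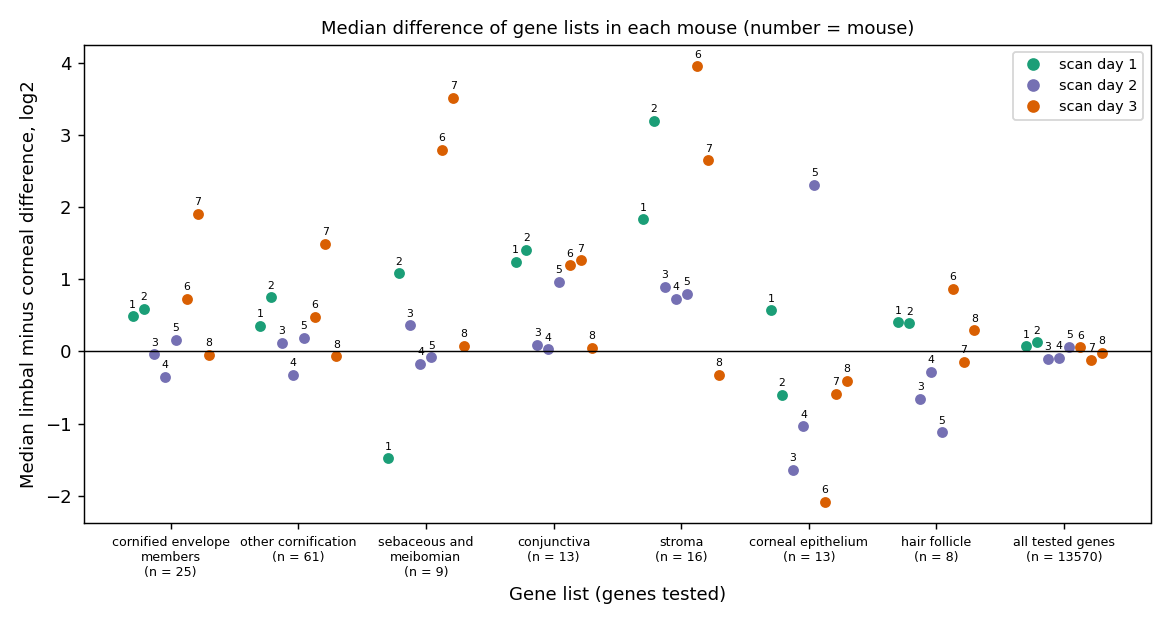
Median limbal minus corneal difference, log2(signal + constant), in each of the 8 mice for the 25 members, other cornification genes, 5 marker lists and all tested genes. Members lie at 1.90 in mouse 7 and -0.05 in mouse 8, sebaceous and meibomian genes at 3.51 and 0.08, and all genes stay near 0.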

How the data were processed

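The deposited table held 1 linear intensity, a signal of the kind the Affymetrix MAS5 algorithm gives, per probe set for each of 16 arrays. Which software made it is not given in the sources used here. With the outer 2% trimmed from both tails, every column averaged 500.0, so the authors had scaled the arrays to 1 target, and no further normalization was applied. No array was left out, and 0 other columns of values were unmapped. Signals were taken as log2(signal + 89.4), the constant being the 25th percentile of all deposited values. Probe sets with a mean log2 above 8.27, the 40th percentile, were tested (27022, and 13570 genes by their brightest probe set). Names came from the platform annotation: 34945 probe sets other than 64 controls had 1 symbol, 932 several, and 9160 were not listed.

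The limbal minus corneal contrast was fitted in R 4.3.3 by limma 3.58.1 (lmFit, eBayes with trend), blocked on mouse, with Benjamini-Hochberg adjustment over all tested probe sets. No p was adjusted over the members alone. The pairing comes from the study's design, in which both captures of a number came from 1 mouse. After subtracting each site's mean, both arrays of 1 mouse correlated with a median r of 0.30, against -0.06 for different mice. The value was above 0.1 in 7 of 8 mice and 0.03 in mouse 2. Both arrays of a mouse shared a scan day, while pairs of different mice were pooled over days. These correlations therefore cannot tell the mouse from the scan day and do not test the pairing. The members, the lists and the alternatives were chosen with earlier results of these data known. Full values are given for the 10 members of smallest p, the 6 brightest, and Krt1, Krt10, Ivl, Flg, Tgm1 and Sprr1a. Named beside them are 8 other cornification genes of smallest p, Lor, Krt2 and Casp14, and up to 3 of the brightest genes of a marker list. Alternatives were a random or absent block (statmod 1.5.0), another filter, constant, normalization, trend, array weights, scan days and each mouse left out. The fit was also run on simulated data whose noise had 1 spread per probe set on all arrays. The real arrays differed in quality, so that run does not test the fit under their conditions. The number of arrays, 8 per site, limits the precision.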

Additional observations from a re-analysis of the deposited data

Results flagged for a closer look

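For each tested member, the 8 limbal values, the 8 corneal values and the 8 differences by mouse were examined for a value set apart from the rest by Dixon's test, whose 95% limit for 8 values is 0.526. Of 75 such sets 6 held one, and chance gives about 1 in 20. Mouse 7 supplied 3 of them. The Krtdap difference was 6.09 in mouse 7, with the nearest other mouse at 1.86. The Klk5 difference was 3.70 in mouse 7, with the nearest at 1.44. Klk7 stood at a log2 value of 10.84 on the limbal array of mouse 7, with the nearest limbal array at 9.55. The corneal array of mouse 5, which had little Krt12, held a Cstb log2 value of 8.32, with the nearest corneal array at 13.30. The Cstb difference in that mouse was 4.83, with the nearest at 1.04, but the dimmer Cstb probe set differed by -0.60 there. In mouse 6 the Evpl difference was -2.62, with the nearest at -0.40.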

How the results depend on the processing

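Differences of the 15 tested named genes were recomputed with no block, other constants, quantile normalization, median centring and each mouse left out. Array weights and single scan days were not among these settings. Dropping the block cannot change a difference in this paired design. Apart from Asprv1, the limma adjusted p of these genes was 0.579 or more in the fit reported, far from the threshold. Of 191 values, 186 kept their sign and their side of the threshold. The exceptions were changes of sign in small differences, Calml3 at -0.073 without mouse 2, Ivl at -0.045 without mouse 5 and -0.063 without mouse 7, Cstb at -0.37 without mouse 5 and Sprr1a at -0.27 without mouse 6. With each mouse left out, these genes reached at most 0.60 (Calml3), 0.58 (Ivl), 0.64 (Cstb) and 0.39 (Sprr1a). The count of member probe sets called was 0 in every fit that left out 1 mouse, but 2 with array weights (Asprv1 and Flg, with 0.433% of all probe sets called) and 1 on the first scan day alone (Asprv1, also with 0.433% of all called). Without the replicate block for the mouse it was 0, and limma then called 0 of all probe sets, with 858 at an unadjusted p under 0.05. The count of members at an unadjusted p under 0.05, 7 of 29 in the fit reported, was 3 of 29 without the replicate block (3.18% of all probe sets), 4 of 28 after quantile normalization (5.9%), 12 of 29 with array weights (8.61%), 1 of 23 on the second scan day alone (3.83%) and 13 of 30 on the third (8.89%). It ran between 2 and 9 when each mouse was left out. It was 4 of 29 without mouse 2 (5.78% of all probe sets), 2 of 27 without mouse 7 (5.35%) and 9 of 29 without mouse 8 (6.33%). Genes with a positive difference numbered 12 of 20 on the first scan day alone and 11 of 20 on the second, and 14 to 21 with a mouse left out, with medians of 0.17 to 0.59. The causes were not tested. Leaving out a mouse or keeping 1 scan day leaves fewer arrays and changes which probe sets pass the filter. Signals near the added constant limit what can be read for the dim Sprr, Tgm1 and Lce3a probe sets.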

Other observations

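Some epidermal and gland transcripts were high in both captures of mouse 8. Lor had a signal of 18652 on the limbal and 18547 on the corneal array of mouse 8, Lce1c 10936 on the limbal and 11099 on the corneal array, and Lce1i 8735 on the limbal and 8303 on the corneal array. Ctsc, a cysteine protease of lysosomes, had 14975 on the limbal and 17102 on the corneal array. On the other 7 corneal arrays Lor reached 6801 at most, Lce1c 585, Lce1i 693 and Ctsc 1132. The gland genes Scd1 and Mgst1 had signals of 60329 and 29772 on the limbal array of mouse 8, and of 52790 and 27032 on its corneal array. Not every such gene was high there: Casp14 had 1002 on the limbal and 488 on the corneal array of mouse 8, the lowest of each site. That probe set is of the kind that can bind related transcripts. The other Casp14 probe set, below the filter, had 32.9 and 8.8 on these arrays, also the lowest of each site. The brightest Tgm3 probe set had 44.1 on the corneal array of mouse 8, also the lowest. The other Tgm3 probe set had 315 there, with a corneal median of 296. The summed signal of 10 muscle genes was likewise highest in mouse 8 at both sites, at 269311 on the limbal and 205554 on the corneal array. The limbal and corneal arrays of this mouse correlated at 0.95 across the 13570 tested genes, against 0.18 to 0.83 in the other mice. The limbal array of mouse 8 was processed with another fluidics protocol than the other 15 arrays. These values were picked after the data were seen.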
